A study of Mus musculus with 12 samples.

Results

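The 40 genes described here encode the contractile machinery of striated muscle, the proteins that move its calcium and the enzymes that supply its energy. They were chosen by name, from *Acta1* to *Ampd1*, and all 40 were found among the 21247 genes of the count table and entered the test. They were measured by RNA-seq in periocular skin, the skin around the eye, of 6-week-old mice on a BALB/c background. The comparison was between 4 libraries labelled ft/ft and 4 labelled ft/ftMyD88-/-, and the 4 WT samples were not analysed here. Both groups carry the ft allele, a point mutation that arose by itself and takes away the function of filaggrin (*Flg*), so the loss of filaggrin is common to both and only the second group also lacks MyD88 by genotype. MyD88 is the adaptor through which toll-like receptors and the IL-1 receptor family signal. By the study's methods the line was freed of the matted (ma) mutation in *Tmem79*, and MyD88-/- is a whole-body genotype for which no driver specific to muscle or skin is named.

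Depth was 18941705 to 29255129 counts for ft/ft libraries and 15802957 to 27037997 counts for ft/ftMyD88-/- libraries. Levels are CPM, the count scaled to a common library size after TMM scaling, on which 3 counts, taken as the floor, were worth 0.102 to 0.183. The study and its design text describe the mice as female, and its methods as sex-matched. *Ddx3y*, a gene of the Y chromosome, averaged 65.0 ± 8.97 CPM (SD, n = 4) for ft/ft and 0.147 ± 0.225 CPM for ft/ftMyD88-/-, and *Xist*, the RNA of the inactive X chromosome, was at 0.0107 ± 0.0214 and 49.4 ± 13.3. *Eif2s3y* followed *Ddx3y*, with 51.3 ± 4.21 and 0.110 ± 0.219 CPM. The Y-linked level of the ft/ft libraries goes against the stated sex, and sex and genotype cannot be told apart in any value below. *Myd88* itself was not lower in ft/ftMyD88-/- (30.7 ± 4.74 and 41.2 ± 7.29 CPM, log2 fold change 0.42, adjusted p = 0.0484). *Flg* was higher in ft/ftMyD88-/- by 1.22 on the log2 scale without passing (adjusted p = 0.12), and *Tmem79* fell by 1.85 (adjusted p = 5.08e-07). Which part of *Myd88* is deleted was not given in the sources used here, so its count over the whole gene does not check the labels, and every direction below is between libraries as labelled. The study counts as many mice as libraries in each group.

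In a striated muscle fibre, actin-based thin filaments slide along myosin-based thick filaments within the sarcomere, the repeating unit that is anchored at the Z disc and the M band. A nerve impulse moves the voltage sensor of the surface membrane, the ryanodine receptor then releases calcium from the sarcoplasmic reticulum, and calcium bound to troponin on the thin filament lets myosin pull. Fast and slow fibres build the same structure from different isoforms of many of its proteins. Skin around the eye lies over a thin sheet of striated muscle that closes the lids, so bulk RNA from such a biopsy can hold muscle transcripts.

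Of the 40 genes, 31 were lower and 1 was higher in ft/ftMyD88-/- at an edgeR adjusted p under 0.05, and 8 did not pass. Over all 20454 genes tested, 12.3% were lower and 10.9% higher by the same rule, 23.3% together. With scaling by library size alone, 26 of the 40 were lower and 1 higher, beside 1326 lower and 4638 higher among all genes. The median log2 fold change, ft/ftMyD88-/- against ft/ft, was -0.96 over the 40 genes and 0.01 over all genes tested. The groups did not overlap, with every ft/ftMyD88-/- library below every ft/ft library, for 31 of the 40 genes, against 14.2% of all genes, and 1 gene was above in every library, against 12.5%. At least a 2-fold fall went with the adjusted p for 18 of the 40 genes, against 2.54% of all genes. The only increase was that of *Casq2*, the cardiac and slow-fibre calsequestrin. The genes that did not pass were *Tnni1*, *Tnnc1*, *Tnnc2*, *Neb*, *Myl3*, *Ttn*, *Tcap* and *Trdn*.

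Together the 40 genes took 1.35, 1.28, 1.42 and 1.75% of all counts in ft/ft replicates 1 to 4. In ft/ftMyD88-/- they took 0.595, 0.879, 1.11 and 0.782%. Even the highest ft/ftMyD88-/- library was below the lowest ft/ft library. In bulk skin, fewer muscle cells in the biopsy and less of these RNAs in each muscle cell cannot be told apart.

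**Figure D1:**
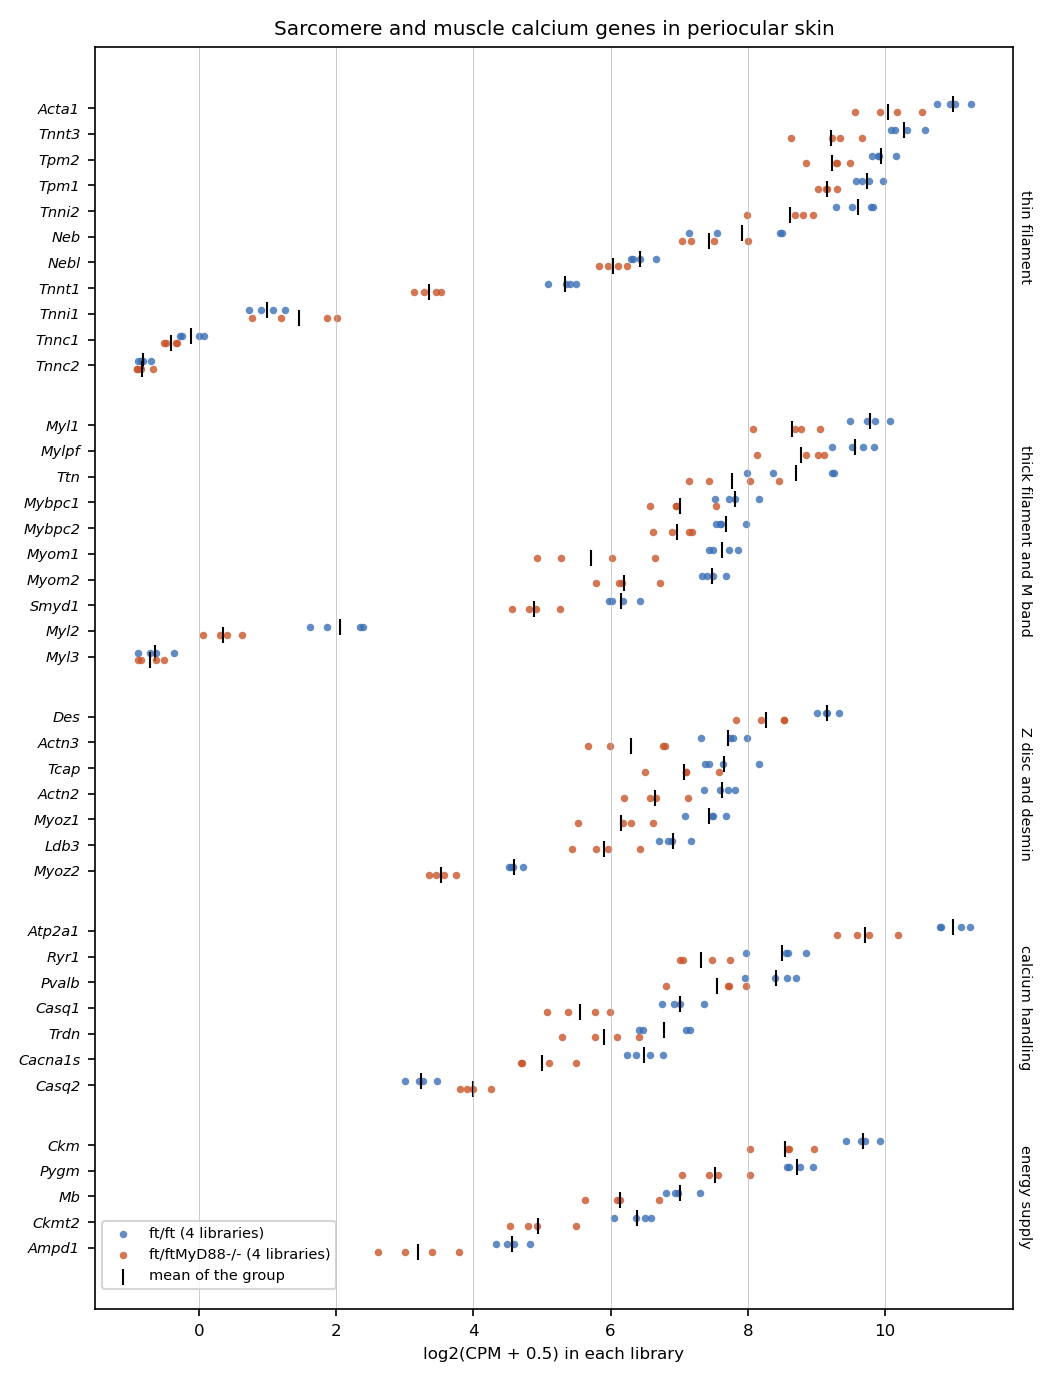
Level of each of the 40 genes as log2(CPM + 0.5) in each of the 8 libraries, blue points for ft/ft and orange points for ft/ftMyD88-/-, with a vertical bar at the mean of each group of 4, grouped by role. Orange points lie to the left of the blue points for 31 genes and to the right only for *Casq2*.

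The DNA just ahead of these genes was looked up for letters that muscle factors are known to bind. RefSeq (GRCm38.p6) gave windows from 250 bases before to 50 bases after the start for 31 of the 40 genes, 40 windows in all. The motifs searched on both strands were the E-box CAGCTG, which MyoD-family proteins bind, the CArG box of serum response factor, the MEF2 site, the M-CAT element CATTCC of TEAD factors, and the TATA box TATAAA, of which the AT-rich ones can overlap each other. CAGCTG was in 47.5% of the 40 windows and 16.3% of 15404 windows of all genes, the CArG box in 15.0% and 1.4%, the MEF2 site in 10.0% and 1.9%, CATTCC in 22.5% and 12.8%, and TATAAA in 12.5% and 8.7%. Some windows of the same gene overlap and hold the same site, as for *Ldb3*, *Mb* and *Tnni1*. Counted by gene, matches were in 16 of 31 for CAGCTG, 5 for the CArG box, 4 for the MEF2 site, 9 for CATTCC and 5 for TATAAA. The 4 windows chosen are printed 5′ to 3′ on the strand of the gene, with each match in capitals. They are those of *Acta1*, the most abundant of these transcripts per length (chr8:123894726-123895025, minus strand), of *Tnnt1*, whose fall had the smallest adjusted p of the 40 (chr7:4515926-4516225, minus strand), and of the calsequestrins *Casq1* (chr1:172219846-172220145, minus strand) and *Casq2* (chr3:102086165-102086464, plus strand), which moved in opposite directions.
Acta1: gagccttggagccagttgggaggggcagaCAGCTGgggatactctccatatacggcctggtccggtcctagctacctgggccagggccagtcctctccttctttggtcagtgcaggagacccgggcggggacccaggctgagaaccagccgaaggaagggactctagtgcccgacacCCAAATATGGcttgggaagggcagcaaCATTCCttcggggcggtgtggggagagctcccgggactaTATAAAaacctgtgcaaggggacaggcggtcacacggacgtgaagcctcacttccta
Tnnt1: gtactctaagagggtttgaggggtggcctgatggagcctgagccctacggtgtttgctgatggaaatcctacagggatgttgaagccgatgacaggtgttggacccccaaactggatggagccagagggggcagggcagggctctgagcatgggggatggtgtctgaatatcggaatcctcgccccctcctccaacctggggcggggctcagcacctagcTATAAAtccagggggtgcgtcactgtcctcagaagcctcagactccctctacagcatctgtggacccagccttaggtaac
Casq1: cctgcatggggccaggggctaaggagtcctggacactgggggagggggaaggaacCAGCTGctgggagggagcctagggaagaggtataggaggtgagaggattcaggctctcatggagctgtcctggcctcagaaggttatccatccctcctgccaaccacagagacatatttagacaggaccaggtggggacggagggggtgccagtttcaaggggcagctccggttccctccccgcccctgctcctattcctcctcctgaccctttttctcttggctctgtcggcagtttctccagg
Casq2: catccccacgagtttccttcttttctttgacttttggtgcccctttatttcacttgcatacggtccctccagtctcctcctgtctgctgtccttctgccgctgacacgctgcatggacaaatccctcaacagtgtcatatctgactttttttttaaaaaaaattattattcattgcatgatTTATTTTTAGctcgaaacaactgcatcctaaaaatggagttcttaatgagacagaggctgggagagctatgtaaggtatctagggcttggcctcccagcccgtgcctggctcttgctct
The *Acta1* window held the E-box, the CArG box, the M-CAT element and the TATA box, the *Casq1* window only the E-box, the *Casq2* window only the MEF2 site and the *Tnnt1* window only the TATA box. A match is a description of letters and not of a factor at work there.

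Among the thin filament genes, 7 of 11 fell. *Acta1* encodes skeletal actin, the body of the thin filament. It was at 1970, 1730, 2070 and 2440 CPM in ft/ft replicates 1 to 4 and at 757, 1150, 1490 and 967 CPM in ft/ftMyD88-/- replicates 1 to 4. The groups did not overlap, and the mean went from 2054 ± 294 to 1092 ± 311 CPM, a log2 fold change of -0.91 (SE 0.187, adjusted p = 0.00547). Scaled by exon length it was the highest of the 40, with 1340 CPM per kb in ft/ft and 711 in ft/ftMyD88-/-, ahead of *Tnnt3* with 793 and 388 CPM per kb. Skeletal, cardiac and smooth muscle actins are nearly alike as proteins, and whether some reads of 50 bases were placed on the wrong one of their genes was not tested.

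Troponin is the calcium switch of the thin filament, built from subunits T, I and C. *Tnnt1*, the slow-fibre troponin T that ties the complex to tropomyosin, was at 44.7, 41.8, 33.6 and 40.1 CPM in ft/ft and at 8.28, 11.1, 10.5 and 9.21 CPM in ft/ftMyD88-/-. That was 4.08-fold lower (log2 fold change -2.03, SE 0.125, adjusted p = 1.45e-06), with replicates close to each other in both groups. *Tnnt3*, its fast-fibre counterpart, was at 1270, 1090, 1130 and 1530 CPM against 397, 650, 813 and 597 CPM. Its fall was 2.04-fold (log2 fold change -1.03, SE 0.195, adjusted p = 0.00403), again without overlap.

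*Tnni2*, the fast-fibre troponin I that holds myosin off actin at rest, was at 883, 621, 733 and 901 CPM in ft/ft and at 254, 412, 493 and 447 CPM in ft/ftMyD88-/- (log2 fold change -0.96, SE 0.196, adjusted p = 0.00591). The slow-fibre *Tnni1* was at 1.16, 1.38, 1.62 and 1.88 CPM in ft/ft and at 3.55, 1.21, 1.80 and 3.17 CPM in ft/ftMyD88-/-. It did not pass the test (log2 fold change 0.67, SE 0.323, adjusted p = 0.154), and ft/ftMyD88-/- replicates 2 and 3 sat among the ft/ft libraries. Without ft/ftMyD88-/- replicate 2 the log2 fold change of *Tnni1* was 0.90 with an adjusted p of 0.0448.

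The troponin C genes, whose products bind the calcium, were barely counted. *Tnnc1*, the slow and cardiac form, drew 13, 9, 9 and 9 counts from the ft/ft libraries and 5, 8, 6 and 5 from the ft/ftMyD88-/- libraries, with an adjusted p of 0.178. *Tnnc2*, the fast form, drew 1, 2, 1 and 3 counts from ft/ft and 3, 1, 1 and 1 from ft/ftMyD88-/-, at or under the floor of 3 counts in every library. The exons of *Tnnc2* in GENCODE (GRCm38) span 800 bases, of which 74.0% are also exons of *Ube2c* on the other strand, and the strand setting of the counting was not given in the sources used here. In ft/ft the mean of *Tnnc2* was 0.0716 CPM, beside 1255 CPM for *Tnnt3* and 784.5 CPM for *Tnni2*, the fast-fibre forms of the other subunits. Whether the row of *Tnnc2* holds all reads of the gene was not tested, nor was the part of this overlap in the low count. With so few counts a small change of *Tnnc2* was not detectable, and its level cannot be taken as that of fast troponin C in the tissue.

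Tropomyosin lies along actin and covers the sites that myosin binds. *Tpm1* and *Tpm2*, both made outside skeletal muscle too, fell less than most of the set, by 0.59 (SE 0.108, adjusted p = 0.00249) and by 0.70 (SE 0.134, adjusted p = 0.00337) on the log2 scale. *Nebl*, nebulette, a short relative of nebulin that is not specific to skeletal fibres, fell by 0.39 (SE 0.112, adjusted p = 0.0255), a call that was lost without ft/ft replicate 1 (adjusted p = 0.0656) or ft/ftMyD88-/- replicate 2 (0.0735) or 4 (0.0724). *Neb*, nebulin itself, the giant ruler of the thin filament, ranged from 141 to 359 CPM within ft/ft alone and from 131 to 255 CPM in ft/ftMyD88-/-. Its log2 fold change of -0.55 (SE 0.371) did not pass (adjusted p = 0.339).

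Of the thick filament and M band genes, 8 of 10 fell. *Myl2*, the regulatory myosin light chain of slow and cardiac muscle, was at 4.59, 4.76, 2.57 and 3.14 CPM in ft/ft and at 0.833, 0.735, 1.05 and 0.549 CPM in ft/ftMyD88-/-. It had the largest fall of the 40 genes, 4.65-fold (log2 fold change -2.22, SE 0.269, adjusted p = 0.000233), and the lowest ft/ft library was well above the highest ft/ftMyD88-/- library. The slow and cardiac essential light chain *Myl3* was at 1 to 5 counts in ft/ft and 1 to 6 in ft/ftMyD88-/-, too few for a small change to be detectable. The fast-fibre light chains *Myl1* and *Mylpf* were abundant, at 890 ± 146 and 765 ± 132 CPM in ft/ft, and fell by 1.11 (adjusted p = 0.00249) and 0.76 (adjusted p = 0.022) on the log2 scale. The call of *Mylpf* was lost without ft/ft replicate 1 (adjusted p = 0.0582) or 4 (0.0592).

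*Myom1* and *Myom2* encode myomesins, which cross-link thick filaments at the M band. *Myom1* was at 172, 179, 211 and 231 CPM in ft/ft and at 30.0, 38.2, 100 and 64.6 CPM in ft/ftMyD88-/-. The fall was 3.41-fold (log2 fold change -1.77, SE 0.387, adjusted p = 0.0183), and the ft/ftMyD88-/- libraries were more spread than the ft/ft libraries. *Myom2* fell by 1.25 (SE 0.175, adjusted p = 0.000912), from 178 ± 19.2 to 74.9 ± 21.4 CPM. *Smyd1*, a muscle methyltransferase needed to assemble thick filaments, fell by 1.26 (adjusted p = 0.000227).

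Myosin-binding protein C decorates the thick filament and comes in a slow form, *Mybpc1*, and a fast form, *Mybpc2*. *Mybpc1* was at 184, 225, 211 and 285 CPM in ft/ft and at 95.2, 124, 185 and 123 CPM in ft/ftMyD88-/-, so that ft/ftMyD88-/- replicate 3 reached the range of ft/ft (log2 fold change -0.78, SE 0.199, adjusted p = 0.0192, and 0.0643 without ft/ftMyD88-/- replicate 4). *Mybpc2* was at 192, 185, 195 and 250 CPM and at 97.8, 145, 141 and 119 CPM, without overlap (log2 fold change -0.70, SE 0.137, adjusted p = 0.00359). *Ttn*, titin, the giant spring that runs from Z disc to M band, was at 252, 613, 328 and 600 CPM in ft/ft and at 173, 262, 350 and 141 CPM in ft/ftMyD88-/-. Its log2 fold change of -0.95 was near the median of the set, but its replicates were widely spread and it did not pass (SE 0.408, adjusted p = 0.142).

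At the Z disc, where thin filaments of neighbouring sarcomeres meet, 6 of 7 genes fell. *Actn3*, the alpha-actinin of fast fibres, fell by 1.35 (adjusted p = 0.0104) and *Actn2*, the alpha-actinin shared by all fibres, by 0.95 (adjusted p = 0.00378). The calsarcins tether calcineurin to alpha-actinin. The fast-fibre calsarcin *Myoz1* was at 180, 135, 177 and 204 CPM in ft/ft and at 45.4, 72.1, 98.0 and 78.4 CPM in ft/ftMyD88-/- (log2 fold change -1.24, SE 0.217, adjusted p = 0.00387). The slow-fibre calsarcin *Myoz2* was at 25.8, 22.9, 22.5 and 23.4 CPM against 9.68, 11.4, 12.9 and 10.5 CPM. Its replicates were among the tightest of the set, and it fell by 1.09 (SE 0.113, adjusted p = 9.85e-05).

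*Ldb3*, a PDZ and LIM protein that holds the Z disc together under load, fell by 0.97 (adjusted p = 0.00578). *Des*, desmin, the intermediate filament that links Z discs side by side and is also made in smooth muscle, fell by 0.87, from 572 ± 53.6 to 314 ± 68.0 CPM (adjusted p = 0.00168). *Tcap*, the cap that joins the ends of titin at the Z disc, was at 166 to 286 CPM in ft/ft and 90.4 to 191 CPM in ft/ftMyD88-/-, with an adjusted p of 0.129, or 0.0377 without ft/ftMyD88-/- replicate 3.

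**Figure D2:**
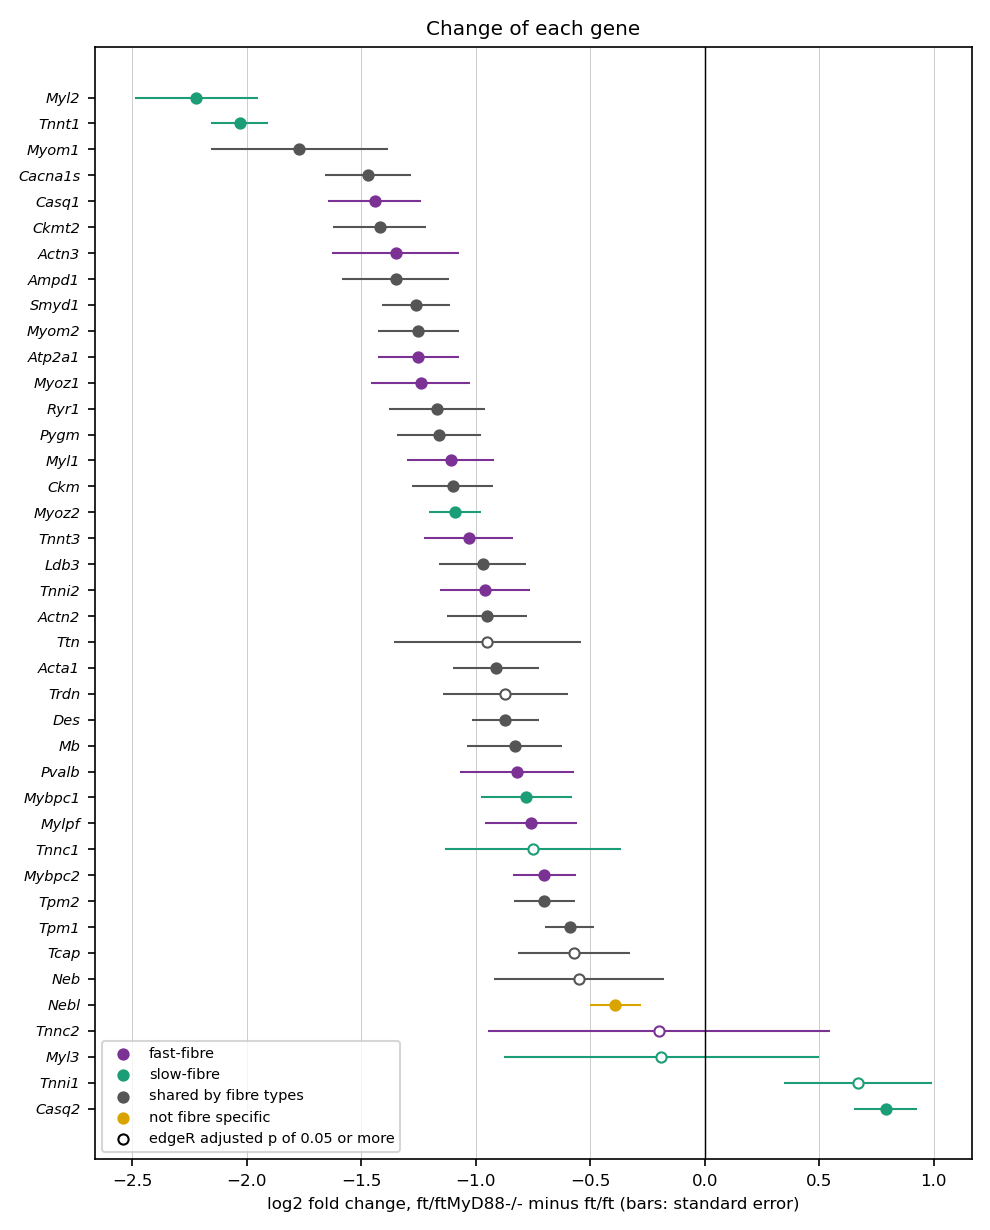
Log2 fold change, ft/ftMyD88-/- minus ft/ft, of each of the 40 genes with its standard error from edgeR, coloured by fibre type, with open points where the adjusted p was 0.05 or more. From *Myl2* at -2.22 to *Nebl* at -0.39 the filled points lie below 0, and *Casq2* at 0.79 is the only filled point above it.

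Of the calcium handling genes, 5 of 7 fell and 1 rose. *Cacna1s*, the pore of the voltage sensor in the T-tubule, was at 74.9, 82.0, 95.0 and 108 CPM in ft/ft and at 25.4, 33.9, 44.6 and 25.7 CPM in ft/ftMyD88-/-. It fell 2.77-fold (log2 fold change -1.47, SE 0.189, adjusted p = 0.000657), without overlap. *Ryr1*, the calcium release channel that the sensor opens, fell by 1.17 (SE 0.209, adjusted p = 0.00377), from 368 ± 87.4 to 163 ± 39.8 CPM. *Trdn*, triadin, which anchors calsequestrin to that channel, was at 85.1 to 142 CPM in ft/ft and 38.7 to 85.1 CPM in ft/ftMyD88-/-. The groups did not overlap, but their nearest libraries were equal after rounding. Its adjusted p of 0.054 lay just above the threshold of 0.05 and was 0.0198 without ft/ftMyD88-/- replicate 3. Part of the exons of *Cacna1s* is shared with an antisense gene.

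*Atp2a1* encodes SERCA1, the pump that returns calcium to the reticulum of fast fibres. It was at 1800, 1780, 2200 and 2400 CPM in ft/ft and at 628, 871, 1160 and 769 CPM in ft/ftMyD88-/-. All 4 ft/ft libraries were above all 4 ft/ftMyD88-/- libraries, a 2.38-fold fall (log2 fold change -1.25, SE 0.177, adjusted p = 0.000676). *Pvalb*, parvalbumin, the soluble calcium buffer of fast fibres, was at 379, 249, 337 and 414 CPM against 111, 212, 251 and 208 CPM, and ft/ftMyD88-/- replicate 3 lay just above ft/ft replicate 2 (log2 fold change -0.82, SE 0.249, adjusted p = 0.0446). That call was lost without ft/ft replicate 1, 3 or 4 or ft/ftMyD88-/- replicate 2 or 4, with adjusted p of 0.107, 0.0853, 0.101, 0.0704 and 0.101. Of the exon bases of *Atp2a1*, 21.9% are shared with other genes, mainly *Rabep2* on the other strand.

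The calsequestrins store calcium inside the reticulum, and their promoter windows are printed above. *Casq1*, the skeletal and mainly fast-fibre form, was at 121, 107, 128 and 164 CPM in ft/ft and at 33.3, 54.1, 63.2 and 41.2 CPM in ft/ftMyD88-/-. It fell 2.70-fold (log2 fold change -1.44, SE 0.203, adjusted p = 0.00123). *Casq2*, the cardiac and slow-fibre form, went the other way.

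*Casq2* was at 9.13, 7.53, 10.6 and 8.74 CPM in ft/ft and at 13.5, 14.5, 15.4 and 18.7 CPM in ft/ftMyD88-/-. Every ft/ftMyD88-/- library was above every ft/ft library, a 1.73-fold rise (log2 fold change 0.79, SE 0.139, adjusted p = 0.00211). *Casq2* is also on a list of smooth muscle markers, on which *Des*, *Tpm1* and *Tpm2* of the set also stand. These 3 went the other way, with falls of 0.87, 0.59 and 0.70 on the log2 scale (adjusted p = 0.00168, 0.00249 and 0.00337). Of the 9 genes of the list outside the set, *Acta2*, smooth muscle actin, rose by 0.52 on the log2 scale (adjusted p = 0.0441), a call that was lost without ft/ft replicate 1, 2 or 4 or ft/ftMyD88-/- replicate 1, 2 or 4 (adjusted p = 0.0896 to 0.114), and *Synpo2*, also expressed in striated muscle, fell by 0.72 (adjusted p = 0.0137). The median log2 fold change of the 9 was 0.28, and their summed level was 288 to 510 CPM in ft/ft and 392 to 485 CPM in ft/ftMyD88-/-. *Tagln*, a defining smooth muscle marker, had 0 to 7 counts in ft/ft and 8 to 11 in ft/ftMyD88-/-, and 67.9% of its exon bases are shared with an antisense gene. The part of smooth muscle in the *Casq2* result was not tested.

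The energy genes all fell. *Ckm*, the muscle creatine kinase, and *Ckmt2*, its mitochondrial partner in fibres, shuttle phosphate to the myofibrils and fell by 1.10 (adjusted p = 0.00157) and 1.42 (adjusted p = 0.00124) on the log2 scale. *Pygm*, the glycogen phosphorylase of muscle, fell from 423 ± 53.2 to 189 ± 54.1 CPM (log2 fold change -1.16, adjusted p = 0.00163). *Ampd1*, the AMP deaminase of muscle, fell by 1.35 (adjusted p = 0.00288), and *Mb*, myoglobin, the oxygen store of the fibre, by 0.83 (adjusted p = 0.0185, and 0.0566 without ft/ftMyD88-/- replicate 4). Of the exon bases of *Mb*, 31.9% are shared with an antisense gene, and of *Ckm* 15.5% also with an antisense gene.

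By fibre type, 10 of 11 fast-fibre genes fell, with a median log2 fold change of -1.03. Of 8 slow-fibre genes, 4 fell and 1 rose, with a median of -0.76 and a range from -2.22 to 0.79. Of 20 genes shared by fibre types, 16 fell, with a median of -0.96. The slow-fibre list thus held the largest falls of the set, *Myl2* and *Tnnt1*, and also its only rise.

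To ask whether the slow and fast forms of a protein moved together, the log2 ratio of slow to fast counts was taken within each library for 6 pairs, which leaves depth out. The ratio of *Casq2* to *Casq1* was -3.72, -3.83, -3.59 and -4.22 in ft/ft and -1.30, -1.90, -2.04 and -1.14 in ft/ftMyD88-/-. That was 6.98 counts of *Casq2* per 100 of *Casq1* in ft/ft and 33.2 in ft/ftMyD88-/-, a difference of 2.25 on the log2 scale. The ratio of *Tnnt1* to *Tnnt3* was lower by 0.97, with -4.96 ± 0.24 in ft/ft and -5.93 ± 0.29 in ft/ftMyD88-/-. The ratio of *Tnni1* to *Tnni2* was higher by 1.57, with -9.01 ± 0.36 and -7.44 ± 1.01.

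Groups did not overlap in these 3 pairs, and each had p = 0.0286 in a two-sided exact permutation test, the smallest p that 4 against 4 allows. Adjusted over the 6 pairs the value was 0.0571, so none passed 0.05. None could have passed unless more than these 3 pairs had reached the smallest p. The differences of the other pairs were 0.19 for *Myoz2* to *Myoz1* (exact p = 0.429), -0.09 for *Mybpc1* to *Mybpc2* (exact p = 0.571) and -0.51 for *Tnnc1* to *Tnnc2* (exact p = 0.4), the last of which rests on very few counts. The troponin T and calsequestrin ratios went in opposite directions, each being a slow form over a fast form.

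**Figure D3:**
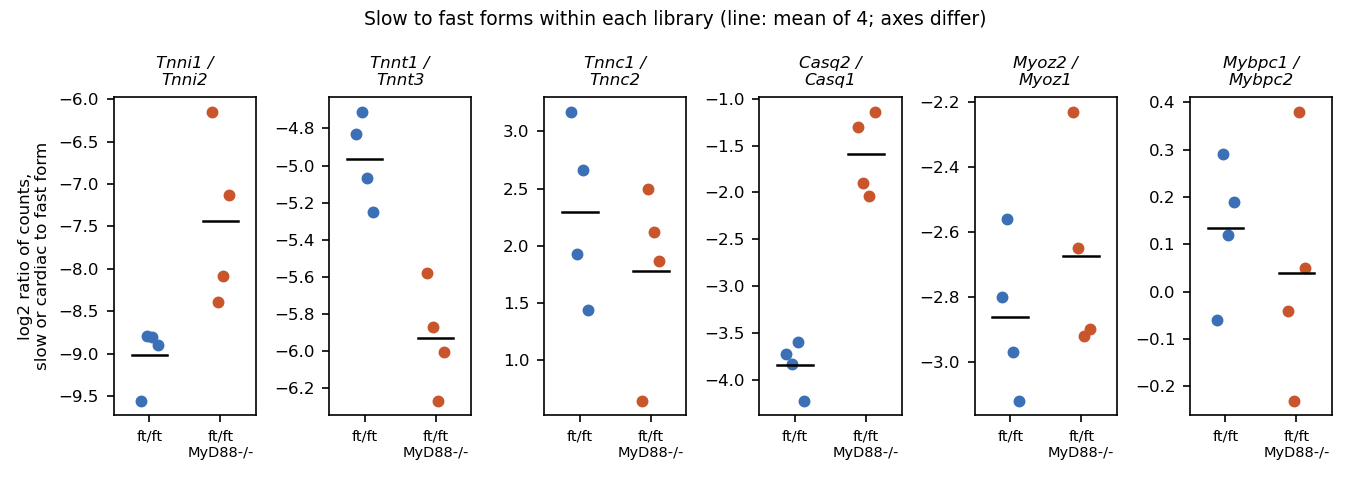
Log2 ratio of the counts of the slow or cardiac form to those of the fast form within each library, for 6 pairs, blue for ft/ft and orange for ft/ftMyD88-/-, with a line at the mean of 4 and a separate vertical axis for each pair. The ratio rises from -3.84 to -1.59 for *Casq2* to *Casq1* and drops from -4.96 to -5.93 for *Tnnt1* to *Tnnt3*, without overlap in either.

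Within each group the same libraries were high or low for most of the genes. Among the 36 genes with a mean of at least 50 counts, 29 were highest in replicate 4 of ft/ft, where 16.3% of 13508 genes of that depth were highest. In ft/ftMyD88-/-, 31 of the 36 were highest in replicate 3, against 26.6% of those genes, and 32 were lowest in replicate 1, against 29.2%. *Myom1* showed the widest case, with 30.0 CPM in replicate 1 and 100 CPM in replicate 3. Leaving out ft/ftMyD88-/- replicate 1 moved the median of the 40 genes to -0.82, and leaving out replicate 3 moved it to -1.14.

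The longest transcripts were the most spread within ft/ft, with an SD of log2(CPM + 0.5) of 0.64 for *Ttn* and 0.68 for *Neb* against 0.39 or less for every other gene of the set. The log2 ratio of *Ttn* to *Acta1* was -2.97, -1.50, -2.66 and -2.02 in ft/ft and -2.13, -2.14, -2.09 and -2.77 in ft/ftMyD88-/-. The ratio of *Neb* to *Acta1* was -3.80, -2.29, -3.48 and -2.76, and then -2.40, -2.66, -2.54 and -2.88. In ft/ft, replicates 1 and 3 were low in both ratios and replicate 2 was high in both. Across 1188 genes with more than 10 kb of exon, the median deviation from the group mean was -0.13, 0.12, -0.04 and 0.04 in ft/ft and 0.07, -0.03, 0.06 and -0.12 in ft/ftMyD88-/-, so that ft/ft replicates 1 and 3 were on the low side there too. Whether transcript length had a part in the *Ttn* and *Neb* values was not tested.

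**Figure D4:**
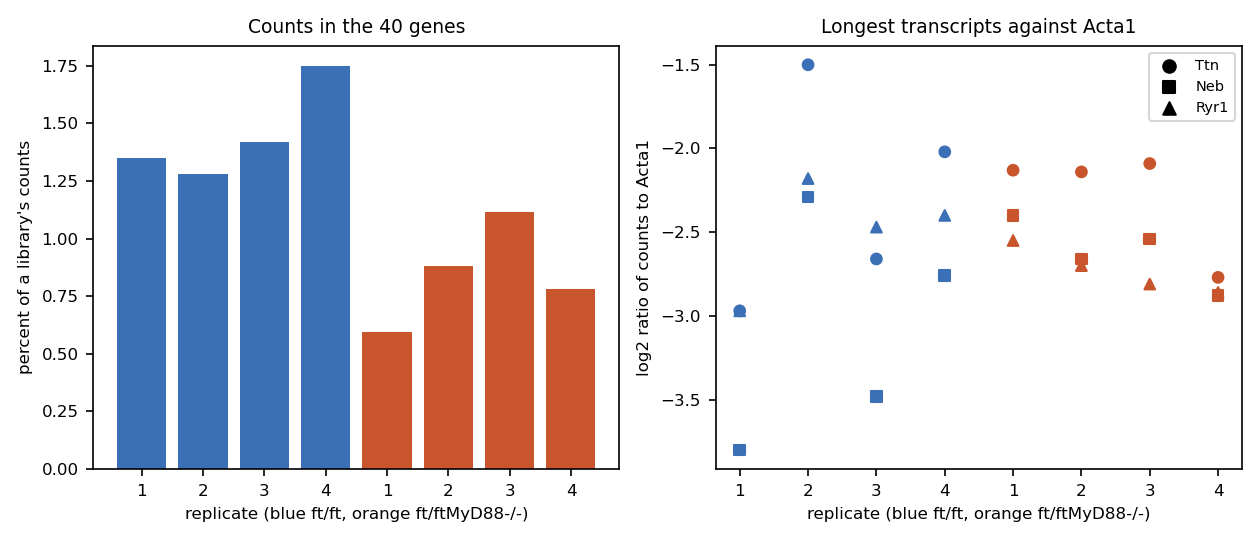
Left, percent of each library's counts that fell in the 40 genes, and right, the log2 ratio of the counts of *Ttn*, *Neb* and *Ryr1* to those of *Acta1*, by library, blue for ft/ft and orange for ft/ftMyD88-/-. The bars stand at 1.28 to 1.75% in ft/ft and 0.595 to 1.11% in ft/ftMyD88-/-, while the *Ttn* ratio spans -2.97 to -1.50 within ft/ft alone.

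Other muscle genes, listed by function and not part of the 40, were lower as well, with 58 of 101 tested falling, 1 rising and a median log2 fold change of -0.70. For calcium and excitation 16 of 21 fell. Among them were *Sln*, sarcolipin, a small inhibitor of the SERCA pump, from 14.1 ± 0.782 to 4.02 ± 1.30 CPM (log2 fold change -1.80, adjusted p = 0.000146), *Srl*, sarcalumenin, by 1.30, *Hrc*, a calcium-binding protein of the reticulum, by 1.34, and *Tmem38a*, a reticulum potassium channel, by 1.03. *Atp2a2*, the slow-fibre and general SERCA2 pump, named here after its values were seen, was at 428 ± 46.6 and 370 ± 22.6 CPM (adjusted p = 0.141).

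Of 28 other sarcomere and Z disc genes, 13 fell and 1 rose. *Actc1*, cardiac actin, fell by 2.02 (SE 0.159, adjusted p = 1.47e-05), the chaperones *Cryab* and *Unc45b* fell by 0.75 and 1.24, and *Tpm3*, the slow-fibre and cytoplasmic tropomyosin, rose by 1.00 (adjusted p = 6.16e-05). *Tpm3-rs7*, a sequence related to *Tpm3* and picked out after its values were seen, averaged 126 ± 6.89 CPM for ft/ft and 1.94 ± 0.531 CPM for ft/ftMyD88-/-. The sum of *Tpm3* and *Tpm3-rs7* was 258 to 295 CPM in ft/ft and 264 to 320 CPM in ft/ftMyD88-/-, which overlapped, so the rise of *Tpm3* is uncertain where reads can be split between the copies.

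Of 9 myosin heavy chains tested, 5 fell, among them *Myh14*, a non-muscle form that is not a motor of the sarcomere's thick filament. *Myh3*, the embryonic form, was at 3.34, 11.7, 7.03 and 5.10 CPM in ft/ft and at 1.14, 0.661, 0.476 and 0.671 CPM in ft/ftMyD88-/- (log2 fold change -3.21, SE 0.418, adjusted p = 0.000681). *Myh2* (IIa) fell by 1.72, *Myh4* (IIb) by 1.12, from 3018 ± 575 to 1392 ± 292 CPM, and *Myh14* by 0.82. *Myh1* (IIx) had a log2 fold change of -0.72 with an adjusted p of 0.241, and the slow *Myh7* was at 0.768 ± 0.269 and 0.303 ± 0.253 CPM (adjusted p = 0.0723), both named after their values were seen. The heavy chain genes are close copies, and reads may be split among them.

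Of 16 metabolic genes 12 fell, among them *Ldhb*, *Pfkm*, *Adssl1* and *Cox6a2*, by 0.73 to 1.11. Of 13 genes of the sarcolemma and its repair 8 fell, among them *Cavin4* by 1.06, *Sgca* by 1.03 and *Popdc3* by 0.79. Of 9 neuromuscular junction genes 2 fell, *Rapsn*, which clusters acetylcholine receptors, by 1.02 and *Colq* by 0.79. Of 14 myogenic regulators 7 fell, including *Myod1*, the transcription factor of muscle commitment, by 1.08 (adjusted p = 0.0175), *Six4* by 0.96, *Mef2a* by 0.65 and *Mef2c* by 0.67. Of 10 genes of atrophy and stress 5 fell and 1 rose. The ubiquitin ligases *Trim63* and *Fbxo32*, known markers of wasting, fell by 1.03 and 0.42, *Trim54* fell by 1.11, and *Mt1*, a metallothionein, rose by 0.58.

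**Figure D5:**
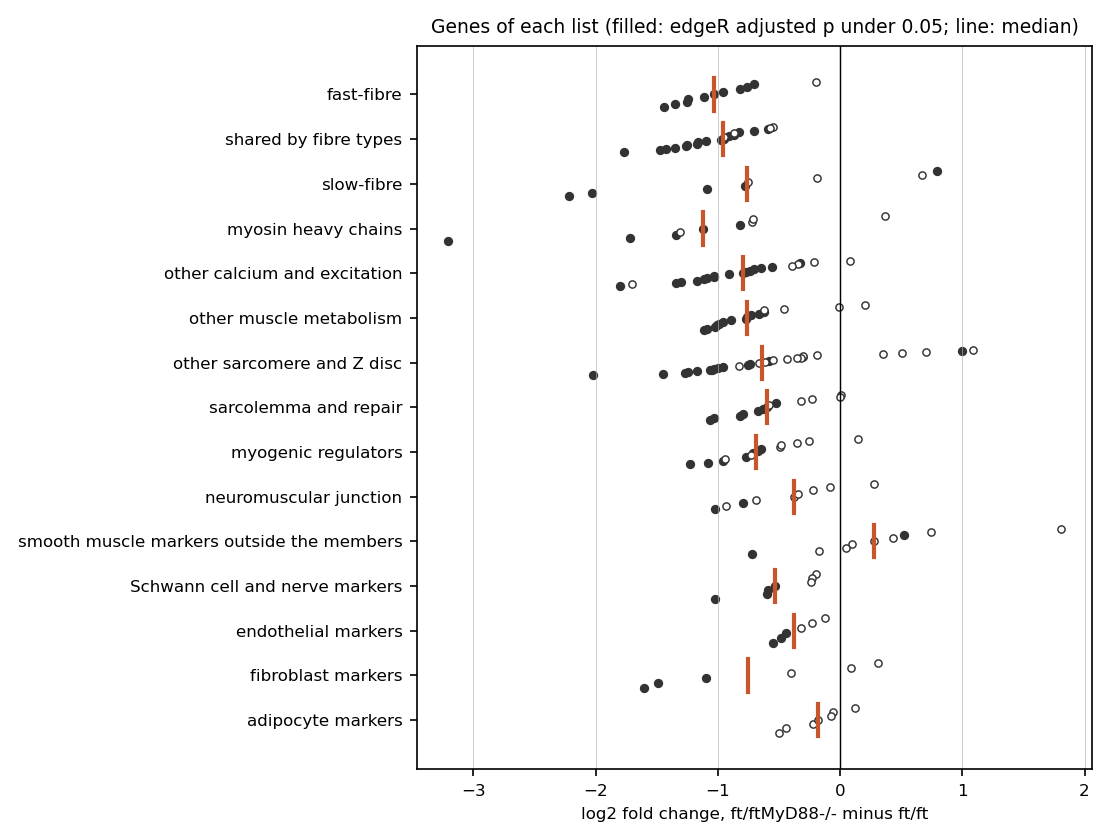
Log2 fold change, ft/ftMyD88-/- minus ft/ft, of every tested gene of each list, filled where the edgeR adjusted p was under 0.05, with an orange line at the median of the list. Medians of the striated muscle lists plotted run from -1.12 to -0.38, against 0.28 for the 9 smooth muscle markers outside the 40 genes. The myosin heavy chain list holds the non-muscle *Myh14*. The fibroblast (-0.75), Schwann cell and nerve (-0.53), endothelial (-0.38) and adipocyte (-0.18) medians are negative too. Lists not plotted include atrophy and stress (-0.29), cardiac (0.8), sebocyte (-0.32), basal keratinocyte (-0.5), hyperproliferative keratinocyte (1.54), neutrophil (1.42) and tendon (-0.07). The hyperproliferative keratinocyte and neutrophil lists share *S100a8* and *S100a9*.

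Markers of other tissues in the biopsy moved with the groups as well, and their part in the muscle values was not tested. Of 7 Schwann cell and nerve markers 4 fell (summed level 445 to 557 CPM in ft/ft, 267 to 421 in ft/ftMyD88-/-). Of 6 fibroblast markers 3 fell, all collagens (14000 to 29100 and 6960 to 10300 CPM), of 6 endothelial markers 3 fell (242 to 289 and 179 to 231), of 8 sebocyte markers 4 fell (18700 to 21000 and 11400 to 16700) and of 6 basal keratinocyte markers 4 fell (13900 to 17000 and 9740 to 11900). Of 5 neutrophil markers 1 rose (31.1 to 263 and 406 to 967 CPM), with 3 higher at an unadjusted p under 0.05, 3 by DESeq2 and 3 by limma voom. Of 6 hyperproliferative keratinocyte markers none passed in edgeR (2790 to 3800 and 3590 to 6340), with 4 higher at an unadjusted p under 0.05, 4 higher by DESeq2 and 3 by limma voom. This list and the neutrophil list share *S100a8* and *S100a9*, so their values are not independent. Of 7 adipocyte markers none passed in edgeR, at an unadjusted p under 0.05 or by DESeq2 or limma voom (785 to 1760 and 766 to 1690). Of 6 tendon markers *Fmod* fell and *Mkx* rose (113 to 409 and 166 to 219), and of 4 cardiac markers *Actc1* fell and *Nppb*, a natriuretic peptide, rose by 2.89 (13.9 to 19.5 and 9.22 to 15.5). None of the genes tested in the lists of this paragraph had 0 counts in a library.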

How the data were processed

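RNA-seq counts per gene were analysed in 4 ft/ft and 4 ft/ftMyD88-/- libraries. The authors deposited raw read counts without normalization. By the study's methods, polyA-selected TruSeq libraries were read as single ends of 50 bases, aligned to GRCm38.p6 with HISAT and tophat2 and counted with HTSeq at default settings, whereas the sample labels list total RNA, Cell Ranger and a protocol for fixed tissue. Aligner versions, the annotation release and the strand setting were not given in the sources used here. The table held 0 columns that matched no sample, and 32 of 21247 genes had no count.

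The test took the 20454 genes whose 8 libraries summed to 10 counts or more and used edgeR 4.0.16 in R 4.3.3 (TMM, robust quasi-likelihood F-test, two-sided, Benjamini-Hochberg over all genes tested, threshold 0.05). The common biological coefficient of variation was 0.182. Slow to fast ratios used log2 of counts plus 0.5 and exact permutation tests. Exon lengths and overlaps came from GENCODE M21 (GRCm38). Each SD and each SE includes the spread between libraries of a group, while the floor is a fixed 3 counts. The study's methods name no molecular identifiers on the reads. Replicates of a group differed by a chi-square of at least 16.3 per degree of freedom, so none was a duplicate.

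The 40 genes and all other lists were chosen with earlier results of these data known. Values in each library are given for the 5 largest falls and up to 5 rises that passed without overlap (Casq2 alone rose), the 12 genes of the 6 pairs and the 3 highest genes, and of each other list up to 4 genes with the smallest adjusted p. One gene that this rule names is not reported here. Of the listed symbols 2 were found under an older name. Alternatives were RLE or library-size scaling, TMM without muscle genes, filterByExpr, no filter, DESeq2 1.42.0, limma 3.58.1 voom, the replicate block, a pseudocount of 1, stricter thresholds and each library left out. Of these fits only the main edgeR fit was run on simulated data, with an outcome that is not given here.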

Additional observations from a re-analysis of the deposited data

Results flagged for a closer look

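Each group of 4 libraries was searched for a library far from the others, over the CPM of the 40 genes and the 6 slow to fast ratios. Of 92 groups, 2 held one, where chance gives about 1 in 20 groups. *Mybpc2*, the fast myosin-binding protein C, stood at 250 CPM in replicate 4 of ft/ft, where the other replicates ran from 185 to 195 CPM. The log2 ratio of *Tnni1* to *Tnni2* was -9.55 in replicate 1 of ft/ft, where the other replicates ran from -8.89 to -8.79.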

How the results depend on the processing

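Across the alternatives that keep the threshold, 26 (library size only) to 33 (DESeq2) of the 40 genes were lower and 27 to 33 with each library left out in turn, while *Casq2* stayed higher in all of them (log2 fold change 0.70 to 0.96). The counts of all genes lower with DESeq2 or with a library left out are not given here, so no share stands beside those ranges. With a log2 fold change of 1 or more in size, 18 of the 40 were lower (6 fast-fibre, 9 shared) and 0 higher, as were 26 other muscle genes and 0 smooth muscle genes in either direction, and 520 of all genes lower and 752 higher. At an adjusted p under 0.01, 38 other muscle genes, 1350 of all genes lower and 951 higher passed, and 0 smooth muscle genes in either direction. Of the 40 genes, *Nebl*, *Mylpf*, *Mybpc1*, *Myom1*, *Actn3*, *Pvalb* and *Mb* lost their calls at that threshold (edgeR adjusted p 0.0104 to 0.0446). Scaling by library size alone moved the median of all genes from 0.01 to 0.19 and gave 1326 lower and 4638 higher over all genes, 3 other muscle genes higher, and 0 smooth muscle genes lower and 2 higher, and DESeq2 and limma voom each gave 2 smooth muscle genes higher. It ended the calls of *Nebl*, *Mylpf*, *Mybpc1*, *Pvalb* and *Mb*. Leaving out 1 library gave 1 to 2 of the 40 higher (2, with *Tnni1*, without ft/ftMyD88-/- replicate 2), 1 to 2 other muscle genes higher (2 without ft/ftMyD88-/- replicate 3), 0 to 1 smooth muscle genes higher and 1464 to 2260 of all genes higher, the lowest without ft/ft replicate 4. *Pvalb* lost its call without any of ft/ft replicates 1, 3 and 4 and ft/ftMyD88-/- replicates 2 and 4 (adjusted p to 0.107), *Mylpf* without ft/ft replicates 1 and 4 (to 0.0592), *Nebl* without ft/ft replicate 1 and ft/ftMyD88-/- replicates 2 and 4 (to 0.0735), and *Mybpc1* and *Mb* without ft/ftMyD88-/- replicate 4 (0.0643 and 0.0566). *Trdn* passed with filterByExpr (0.0408), DESeq2 (0.00194), limma voom (0.0248) and without ft/ftMyD88-/- replicate 3 (0.0198), and *Tcap* with DESeq2 (0.0436) and without that replicate (0.0377). *Myl3*, with few counts, ran from -0.61 to 0.23 and changed sign to 0.23 without ft/ft replicate 3 and to 0.08 without ft/ftMyD88-/- replicate 1, and *Tnnc2* ran from -0.75 to 0.12 and changed sign to 0.12 without ft/ft replicate 4 and to 0.01 and 0.05 without ft/ftMyD88-/- replicates 2 and 3. The replicate block left 31 of the 40 lower, ended the call of *Pvalb* (0.0793) and gave one for *Tcap* (0.0427). Deviations of same-numbered libraries correlated at -0.293 to 0.0723 and those of differently numbered libraries at -0.292 to 0.206. So few values cannot decide whether same-numbered libraries were paired. For the 6 ratios, no alternative brought the adjusted p under 0.05 or changed the sign (without 1 library, 2.10 to 2.40 for *Casq2* to *Casq1*, -1.09 to -0.86 for *Tnnt1* to *Tnnt3* and 1.14 to 1.89 for *Tnni1* to *Tnni2*). With all libraries, the smallest exact p of 0.0286 adjusts to 0.0571 while only 3 pairs reach it, so failing the threshold says little about the ratios. With the replicate block the ratios could not pass, since flipping the signs of 4 differences allows no p under 0.05. The cause of the shifts across the alternatives was not tested. Counts were too few for a small change in *Tnnc2* or *Myl3* to be detectable, and whether the row of *Tnnc2* holds all its reads was not tested. *Tnnc1*, with 5 to 13 counts a library, did not overlap between groups but did not pass (log2 fold change -0.75, adjusted p = 0.178).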
